A study of Homo sapiens with 17 samples.

Results

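The chemokine CXCL12 and its receptor CXCR4 were followed across 17 RNA-seq libraries of 786-O. This human line comes from a clear cell carcinoma of the kidney and has no working VHL, the protein that targets HIF alpha subunits for destruction. CXCL12 and CXCR4 are 2 of the 27315 genes in the authors' deposited table, taken by gene symbol, and each symbol had a single row. The pair was chosen with earlier results of these data known, among them a rise of CXCL12 with guides against HIF2a, so the levels of both genes against their controls and between the controls are given as a description, with no test. ACKR3, the second receptor of CXCL12, the other genes of the axis and the other chemokines were taken from lists and tested.

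The cells had been infected with lentivirus carrying Cas9 and 1 guide RNA (pLenti CRISPR-V2, made in 293T cells) and kept under antibiotic. The HIF2a experiment has the guides HIF2a sg4 and HIF2a sg6 and a scrambled-guide control, with 3 libraries each. The USP37 experiment has the guides USP37 sg3 and USP37 sg9, with 3 libraries each, and its own scrambled-guide control, with 2 libraries numbered 2 and 3. HIF2a is the transcription factor encoded by EPAS1, which accumulates when VHL is lost, and USP37 is a deubiquitinase that the series title links to HIF2a in kidney cancer. All 6 groups thus carry the same loss of VHL, Cas9 and a guide, and all come from 1 cell line. Whether replicates were separate cultures is not said in the labels, and the spread behind each p-value is that between these libraries, which may be technical. Fewer cells making a transcript and less of it in each cell cannot be told apart in such libraries.

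CXCL12, also called stromal cell-derived factor, is a chemokine that stromal cells make and that draws leukocytes, stem cells and tumour cells towards it. It signals through CXCR4, a receptor coupled to inhibitory G proteins that is then phosphorylated by GRK kinases, bound by arrestins and carried to lysosomes. ACKR3 also binds CXCL12 with high affinity, but it recruits arrestin without activating those G proteins and removes the chemokine from the outside of the cell. In renal carcinoma CXCR4 is known as a gene induced by hypoxia-inducible factors and raised by the loss of VHL. 786-O cells make HIF2a but no full-length HIF1A protein.

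The 250 bases before the transcription start of each gene are shown because CXCL12 and CXCR4 differed in direction when HIF2a was targeted, and hypoxia-inducible factors bind DNA at short core motifs. The sequences are from RefSeq on GRCh38.p14 and are written 5′ to 3′ on the minus strand, which carries both genes. Capitals mark a match to the core motifs ACGTG or GCGTG, each searched on both strands. CXCL12 lies at chr10:44385098-44385347 and CXCR4, from the most upstream of its 3 RefSeq starts, at chr2:136118150-136118399.
CXCL12: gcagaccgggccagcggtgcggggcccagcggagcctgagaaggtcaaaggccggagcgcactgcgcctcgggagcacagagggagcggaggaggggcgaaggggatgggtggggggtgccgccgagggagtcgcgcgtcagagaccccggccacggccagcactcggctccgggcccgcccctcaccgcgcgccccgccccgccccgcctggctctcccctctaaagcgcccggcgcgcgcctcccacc
CXCR4: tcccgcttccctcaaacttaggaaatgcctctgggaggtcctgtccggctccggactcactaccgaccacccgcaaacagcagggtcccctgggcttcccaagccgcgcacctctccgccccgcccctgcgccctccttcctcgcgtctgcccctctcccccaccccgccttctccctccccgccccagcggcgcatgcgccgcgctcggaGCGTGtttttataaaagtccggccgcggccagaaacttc
The CXCL12 window held 0 matches and the CXCR4 window held 1, a GCGTG whose first base lies at -39 from the start. Of 35116 RefSeq starts, 43.2% had at least 1 match in a window of the same length, so a match is common. A match is not a binding site, and its absence from this window says nothing about binding elsewhere. The deposited values carry no coordinates, and the submitters' processing notes name the build hg19.

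Values are the authors' variance-stabilised values (VST), on a log2 scale that flattens towards a floor of 5.143, so differences of weakly expressed genes are understated. The depth of the libraries is unknown. EPAS1 was lower with both HIF2a guides (9.54 ± 0.14 in sg4 and 10.34 ± 0.20 in sg6, against 11.91 ± 0.13 in their control), and USP37 was lower with both USP37 guides (8.33 ± 0.10 in sg3 and 8.13 ± 0.14 in sg9, against 9.24 ± 0.13 in their control; SD, n = 3, or 2 for the USP37 control). The mean of USP37 was also lower with the HIF2a guides (8.55 ± 0.13 in sg4 and 8.49 ± 0.31 in sg6, against 8.96 ± 0.24 in their control), with overlapping libraries. The renal carcinoma markers PAX8 (12.18 to 12.99), PAX2 (7.57 to 8.64) and VIM (15.82 to 16.64) were well above the floor in every library. In an earlier analysis of these data HIF2a sg6 replicates 2 and 3 and HIF2a control replicate 2 stood apart from their groups. Replicate 3 of the USP37 control carried T cell transcripts above their level in any other library, with values given beside CXCR4. Libraries were compared with limma, all 12484 genes that passed a filter on low values in 1 fit, and a gene was called at a Benjamini-Hochberg adjusted p under 0.05. CXCL12 passed that filter and CXCR4 did not, so 1 of the 2 genes was in the fit.

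CXCL12 was high in all 6 libraries with a HIF2a guide and low in all 11 others. The values were 11.49, 11.91 and 11.81 in HIF2a sg4 and 10.68, 11.03 and 11.19 in HIF2a sg6, against 7.01, 6.95 and 7.39 in the HIF2a control. No library of either guide came within the range of the control. The mean was 11.74 ± 0.22 in sg4 and 10.96 ± 0.26 in sg6, against 7.12 ± 0.24 in the control (SD, n = 3 each). That is a difference of 4.62 for sg4 (SE 0.18), 3.85 for sg6 (SE 0.18) and 4.23 for the mean of both guides (SE 0.15) on the log2 scale. Of the 12484 tested genes 25.3% were called for sg4, 29.0% for sg6 and 30.6% for both guides, and nothing is read from this for CXCL12, which was chosen on it. Left out in turn, single libraries moved the difference of both guides only between 4.15 and 4.37.

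The HIF2a guides also differed from each other in CXCL12. This comparison uses no control library, but its guide libraries are those on which the gene was chosen, so its p-value is not independent of that choice. CXCL12 was lower in sg6 than in sg4 (difference -0.77, SE 0.18, limma adjusted p = 0.00802), and the 3 libraries of sg6 lay below the 3 of sg4. Between these guides 9.22% of the tested genes were called. The call was lost without sg4 replicate 2 (-0.68, limma adjusted p = 0.0623), without sg6 replicate 1 (-0.63, limma adjusted p = 0.0557) and with libraries weighted by their quality (-0.70, limma adjusted p = 0.0595). EPAS1 itself was 0.81 higher in sg6 than in sg4 (SE 0.12, limma adjusted p = 0.000154), so the guide with less EPAS1 mRNA had more CXCL12 mRNA. Whether the levels of EPAS1 and CXCL12 are related was not tested, and these libraries do not measure HIF2a protein.

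With the USP37 guides CXCL12 stayed near its control. It was 5.77, 6.11 and 6.08 in USP37 sg3 and 5.53, 6.31 and 6.0 in USP37 sg9, against 6.26 and 6.09 in the USP37 control. The 3 groups overlapped, all near the floor of 5.143. Means were 5.99 ± 0.19 in sg3 and 5.95 ± 0.39 in sg9 (SD, n = 3 each), against 6.17 ± 0.11 in the control (SD, n = 2). The differences from the control were -0.19 for sg3 and -0.23 for sg9 (SE 0.20 each), within about 1 standard error of 0, where 35.2% of the tested genes were called for sg3 and 47.8% for sg9. With the replicate number in the fit these differences were -0.06 for sg3 and -0.10 for sg9. Values this low leave little room for a fall to be seen. Between the guides the difference was -0.04 (sg9 minus sg3, SE 0.18, limma adjusted p = 0.887), in a comparison where 30.8% of tested genes were called. The filter used the mean over all 17 libraries, which the higher values of the HIF2a experiment raise. Both USP37 guide means lay less than 1 log2 unit above the floor, so this p-value does not show that the guides are alike.

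The controls of the experiments were not alike in CXCL12. Both libraries of the USP37 control (6.26 and 6.09) lay below all 3 of the HIF2a control (7.01, 6.95 and 7.39), a difference of -0.94 (SE 0.20). With the replicate number in the fit this difference was -1.07. Between the controls 40.5% of the tested genes were called, and control and experiment cannot be told apart. From highest to lowest the groups ran HIF2a sg4, HIF2a sg6, HIF2a control and then the 3 USP37 groups. The last 3 did not differ beyond their spread. The HIF2a control lay above every USP37 library.

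Fibroblasts and endothelial cells are known sources of CXCL12, so their markers are set beside it, as the sum over each list of a library's height above the lowest library of the same replicate number. For 7 fibroblast markers the sum was 1.57 to 2.15 in HIF2a sg4 and 1.35 to 2.72 in HIF2a sg6, against 4.81 to 5.83 in the HIF2a control, so it was lower where CXCL12 was higher. It was 3.0 to 3.73 in USP37 sg3 and 3.2 to 3.51 in USP37 sg9, against 2.73 to 2.87 in the USP37 control. Of these 7 markers 2 passed the filter, COL1A1 and the proteoglycan LUM, and LUM was called lower with the HIF2a guides (-1.68, SE 0.12, limma adjusted p = 3.83e-10). LUM reached 8.06 and COL1A1 7.72, while no other fibroblast marker exceeded the 6.49 of COL3A1 in any library. The sum is therefore not read as an amount of fibroblasts. For 5 endothelial markers, none of which passed the filter, the sum was 1.90 to 2.20 in HIF2a sg4 and 1.55 to 2.12 in HIF2a sg6, against 1.02 to 1.32 in the HIF2a control. It was at most 1.17 in the USP37 groups. The defining endothelial markers CDH5 and VWF were at the floor in 4 of the 6 libraries with a HIF2a guide and in every library of their control. In HIF2a sg4 replicate 3 and HIF2a sg6 replicate 1 they stood at most 0.37 above it. PECAM1 was 6.28 to 6.63 with the HIF2a guides, against 5.58 to 5.78 in their control, and the part of such markers in the CXCL12 values was not tested.

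CXCR4 was lower with every guide than with the control of its experiment, at levels close to the floor. It was 5.48, 5.38 and 5.33 in HIF2a sg4 and 5.24, 5.12 and 5.07 in HIF2a sg6, against 6.02, 6.10 and 5.89 in the HIF2a control. It was 5.24, 5.12 and 5.07 in USP37 sg3 and 5.76, 5.36 and 5.36 in USP37 sg9, against 6.22 and 6.58 in the USP37 control. HIF2a sg6 and USP37 sg3 thus had the same 3 values, the lowest that CXCR4 takes in each replicate number.

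The authors' correction had shifted the floor for CXCR4 to 5.24 in libraries numbered 1, 5.12 in those numbered 2 and 5.07 in those numbered 3. Such shifted floors were recognised from values shared exactly by libraries. In all 4331 varying genes with a shared lowest value in each replicate number, the mean of the 3 lowest values was 5.143. Measured from the floor of its own number, CXCR4 stood at 0.24, 0.25 and 0.26 in HIF2a sg4 and at 0 in all 3 libraries of HIF2a sg6, against 0.77, 0.98 and 0.83 in the HIF2a control. It stood at 0 in all 3 libraries of USP37 sg3 and at 0.52, 0.23 and 0.30 in USP37 sg9, against 1.10 and 1.51 in the USP37 control. No library with a guide reached the lowest library of its control on this scale. A value at the floor does not show that the transcript was absent, so a difference that includes HIF2a sg6 or USP37 sg3 is a distance to the floor on the deposited scale and no fold.

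As deposited, the mean of CXCR4 was 5.40 ± 0.08 in HIF2a sg4 and 5.14 ± 0.09 in HIF2a sg6, against 6.0 ± 0.10 in the HIF2a control (SD, n = 3 each). The difference of sg4 from its control was -0.61 (SE 0.12, from the fit with no filter). The mean was 5.14 ± 0.09 in USP37 sg3 and 5.49 ± 0.23 in USP37 sg9 (SD, n = 3 each), against 6.40 ± 0.25 in the USP37 control (SD, n = 2). The difference of sg9 from its control was -0.90 (SE 0.13, from the fit with no filter). In the comparison of both USP37 guides with their control 44.3% of the 12484 tested genes were called, and with the HIF2a guides 30.6%, neither of which is read as a result on CXCR4. With 1 guide of each target at the floor in all 3 libraries, no test between guides is given for CXCR4.

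The USP37 control was the highest group for CXCR4, at 6.22 and 6.58, against 5.89 to 6.10 in the HIF2a control, a difference of 0.39 (SE 0.13, from the fit with no filter). This difference was 0.21 without USP37 control replicate 3 and 0.57 without USP37 control replicate 2. From highest to lowest the groups ran USP37 control, HIF2a control, USP37 sg9, HIF2a sg4, and then HIF2a sg6 and USP37 sg3 together. USP37 sg9 and HIF2a sg4 did not differ beyond their spread.

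**Figure D1:**
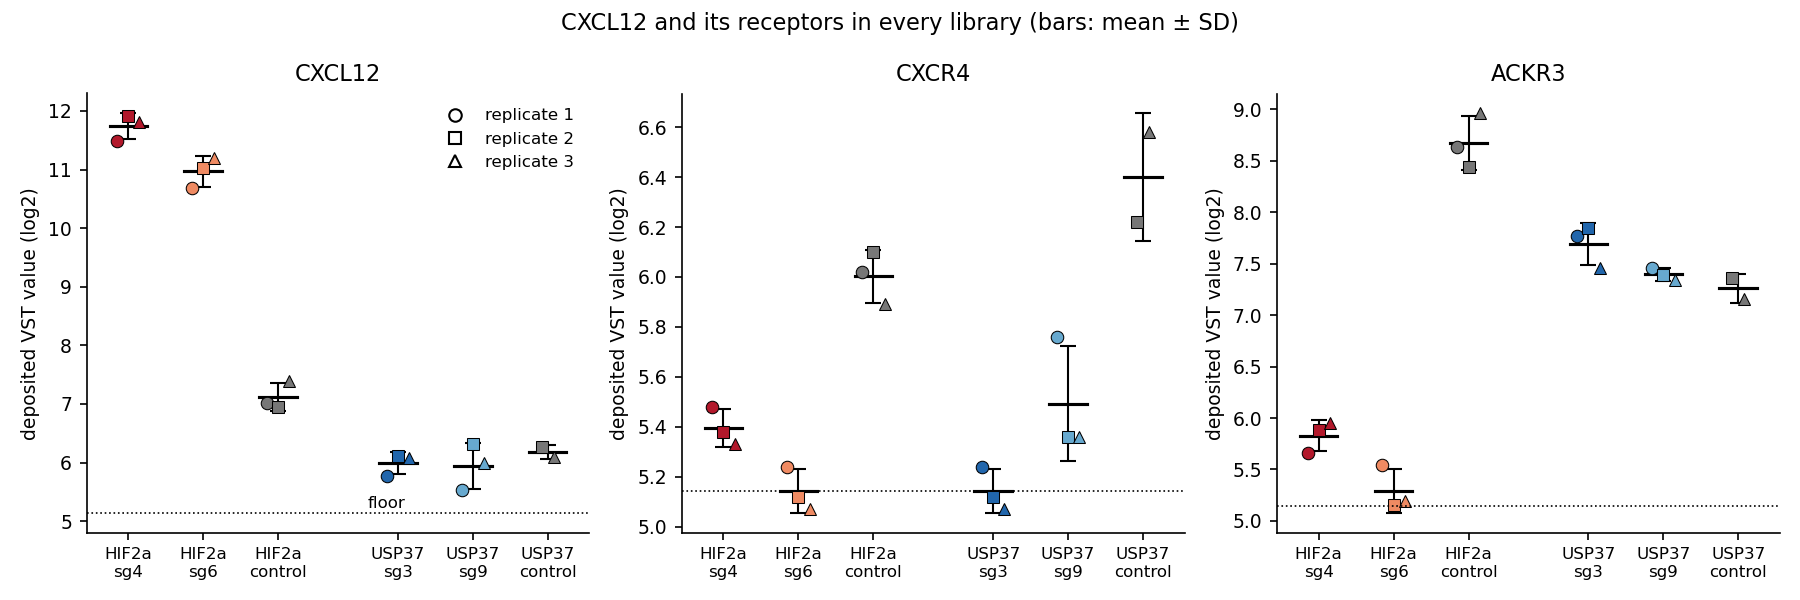
CXCL12, CXCR4 and ACKR3 in each of the 17 libraries by group, as deposited VST values (log2, vertical axes with different ranges), with bars for mean ± SD and symbols for the replicate number; the dotted line marks the mean floor of 5.143. CXCL12 lies at 10.68 to 11.91 with the HIF2a guides and at 5.53 to 7.39 elsewhere, CXCR4 is highest in both controls, and ACKR3 is lowest with the HIF2a guides.

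CXCR4 is carried by most leukocytes, so leukocyte markers are given beside it. The T cell gene CD3E was 6.78 in USP37 control replicate 3 and at the floor in the other 16 libraries, and the pan-leukocyte gene PTPRC was 6.68 there and at most 5.53 elsewhere. Over 6 further T cell genes (CD2, CD3D, CD3G, LCK, ZAP70 and IKZF1), chosen after these values were seen, the summed height was 7.85 in that library, 0 in USP37 control replicate 2 and at most 0.61 in the rest. USP37 control replicate 2, with CD3E, PTPRC and those 6 genes at the floor, had CXCR4 at 6.22, above every library with a guide. That library also had the highest value of the leukocyte integrin ITGB2, at 7.45, against 6.88 in replicate 3 and 5.57 to 7.02 in the other 15 libraries. Without replicate 3 of the control, CXCR4 differed by -0.90 with the mean of both USP37 guides, against -1.08 with both control libraries, with sg3 at the floor in each.

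Over all 8 leukocyte markers the summed height was 1.87 to 3.30 in HIF2a sg4 and 2.01 to 3.42 in HIF2a sg6, against 0.63 to 2.45 in the HIF2a control. It was 0.89 to 2.11 in USP37 sg3 and 1.29 to 3.19 in USP37 sg9, against 3.43 and 5.71 in the USP37 control. Of the 8 markers, 3 to 5 were at the floor in each library, the B cell gene MS4A1 in 16 of the 17. The sum was thus not lower where HIF2a guides went with less CXCR4, and it was lower with the USP37 guides. Its part in the USP37 comparison beyond these values was not tested. ITGB2, the 1 marker that passed the filter, was called higher with the HIF2a guides (0.49, SE 0.17, limma adjusted p = 0.0284) and lower with the USP37 guides (-0.57, SE 0.19, limma adjusted p = 0.0202).

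**Figure D2:**
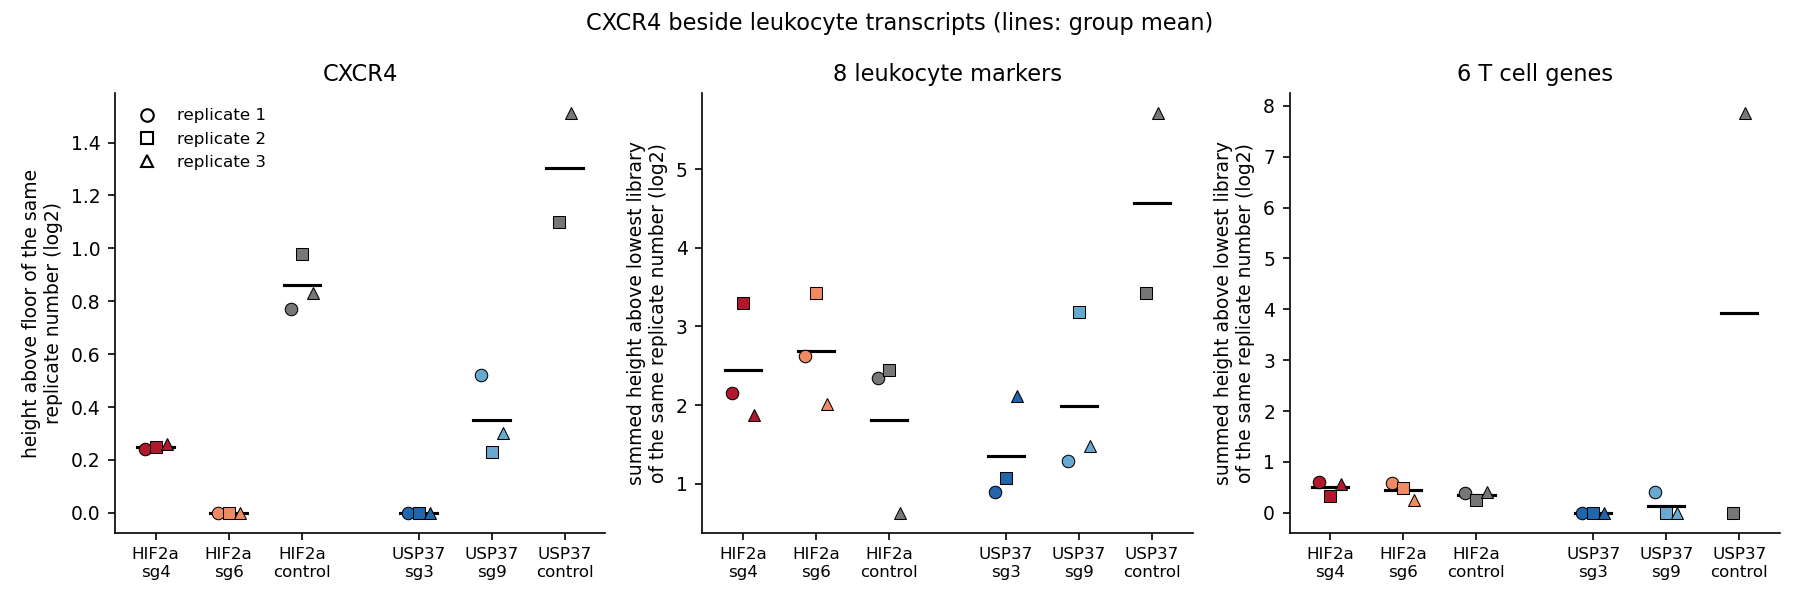
Height of CXCR4 above the floor of its replicate number, summed height of 8 leukocyte markers and summed height of 6 T cell genes (log2 units on each vertical axis) in each library by group; lines are group means. CXCR4 is above its floor in both USP37 control libraries (1.10 and 1.51), while the T cell genes are raised in replicate 3 alone (7.85, against 0 in replicate 2).

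ACKR3, the scavenging receptor of CXCL12 and CXCL11, was far lower with the HIF2a guides, where CXCL12 was high. It was 5.66, 5.88 and 5.95 in HIF2a sg4 and 5.54, 5.15 and 5.19 in HIF2a sg6, against 8.63, 8.44 and 8.96 in the HIF2a control. All 6 libraries with a guide lay well below the control and close to the floor, where a difference is understated. The mean of both guides differed from the control by -3.12 (SE 0.13, limma adjusted p = 6.31e-14), with -2.85 for sg4 and -3.39 for sg6. It was lower in sg6 than in sg4 (difference -0.54, limma adjusted p = 0.0263). With the USP37 guides it was 7.77, 7.85 and 7.46 in sg3 and 7.46, 7.39 and 7.34 in sg9, against 7.36 and 7.16 in their control. The difference of both guides was 0.28 (SE 0.15, limma adjusted p = 0.128), and of sg3 alone 0.43 (limma adjusted p = 0.0496). The effects of the USP37 and HIF2a guides on ACKR3 differed by 3.40 (SE 0.20, limma adjusted p = 4.08e-11), in a contrast where 38.6% of tested genes were called. The USP37 control lay below the HIF2a control (difference -1.42, SE 0.17, limma adjusted p = 1.79e-06). CXCL12 and ACKR3 thus stood at opposite ends with the HIF2a guides, and CXCR4 and ACKR3 were both lower there.

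The list of the CXCL12-CXCR4 axis held 77 further genes, of which 61 passed the filter, 15 did not and 1, RGS1, had a single value in every library. With the HIF2a guides 14 of the 61 were called higher and 11 lower, or 41.0%, against 30.6% of all tested genes (16.1% higher and 14.5% lower), with a median difference of -0.03. With the USP37 guides 10 were higher and 14 lower, or 39.3%, against 44.3% of all (22.4% higher and 21.9% lower), with a median of -0.08. Between the controls 19 were higher and 17 lower, or 59.0%, against 40.5% of all (20.1% higher and 20.4% lower), with a median of 0.01. Over all tested genes the 3 medians lay between 0.00 and 0.01. The list as a whole leaned to neither side in any of the 3 comparisons.

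Among the other ligands and receptors of the axis, CD74, the surface receptor of MIF that can pair with CXCR4, moved in opposite directions in the experiments. It was 8.66 ± 0.09 in HIF2a sg4 and 8.43 ± 0.22 in HIF2a sg6, against 7.60 ± 0.14 in the HIF2a control (SD, n = 3 each), a rise of 0.95 (SE 0.12, limma adjusted p = 2.15e-06). In the USP37 experiment it was 7.37 in sg3 and 7.58 in sg9, against 8.11 in the control, a fall of 0.64 (SE 0.14, limma adjusted p = 0.00084). MIF, a cytokine that also binds CXCR4, was not called with the mean of both guides of either target (-0.20 with the HIF2a guides, limma adjusted p = 0.136, and 0.16 with the USP37 guides, limma adjusted p = 0.267). It was called higher in USP37 sg9 (0.37, limma adjusted p = 0.0242) but not in USP37 sg3 (-0.04, limma adjusted p = 0.826). USP37 sg9 lay above sg3 (0.41, limma adjusted p = 0.0112). MIF was called lower with the HIF2a guides when libraries were weighted by their quality (-0.27, limma adjusted p = 0.0166). It differed by -0.30 without the 3 libraries that stand apart, which leaves a single library of HIF2a sg6. The ligands CXCL11 and CXCL14 did not pass the filter, and CXCL14 was at most 5.45 in any library.

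Of the 11 genes that cleave, bind or present CXCL12, 6 passed the filter. The peptidase DPP4, which trims the N-terminus of CXCL12 and so inactivates it, rose with the HIF2a guides (0.56, SE 0.09, limma adjusted p = 4.3e-05) and fell with the USP37 guides (-0.76, SE 0.10, limma adjusted p = 6.89e-06). It was 11.66 to 12.32 with the HIF2a guides, against 11.35 to 11.49 in their control, and 11.36 to 11.94 with the USP37 guides, against 12.35 and 12.36 in theirs. The collagenase MMP1, which also cleaves CXCL12, rose with both targets, by 1.03 with the HIF2a guides (SE 0.11, limma adjusted p = 1.48e-07) and by 1.07 with the USP37 guides (SE 0.12, limma adjusted p = 1.04e-06). The guides of each target were uneven: MMP1 was lower in HIF2a sg6 than in HIF2a sg4 (-1.21, limma adjusted p = 2.63e-06) and higher in USP37 sg9 than in USP37 sg3 (0.87, limma adjusted p = 6.05e-05). The gelatinase MMP2 fell with the USP37 guides (-0.86, SE 0.11, limma adjusted p = 4.56e-06) and was 0.17 from its control with the HIF2a guides (limma adjusted p = 0.195). For MMP2 the HIF2a guides gave 0.04 for sg4 (limma adjusted p = 0.857) and 0.31 for sg6 (limma adjusted p = 0.0441), and their mean was called with libraries weighted by quality (0.24, limma adjusted p = 0.0462). The heparan sulfate proteoglycan SDC4 was the remaining call with the HIF2a guides (0.22, limma adjusted p = 0.015), called in sg4 but not in sg6 alone.

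All 6 G protein genes passed the filter, and limma called 3 lower with the HIF2a guides and 0 in either direction with the USP37 guides, where 1 had an unadjusted p under 0.05. Of all tested genes 14.5% were called lower with the HIF2a guides and 44.3% in either direction with the USP37 guides. GNAI1, an inhibitory alpha subunit of the kind CXCR4 activates, fell by 0.65 with the HIF2a guides (SE 0.11, limma adjusted p = 8.01e-05). GNAI2 (-0.28) and the beta subunit GNB1 (-0.20) were the other falls with the HIF2a guides, each called in sg6 but not in sg4 alone. GNAI1 differed by -0.23 with the mean of both USP37 guides (limma adjusted p = 0.14). In USP37 sg9 alone GNAI1 (-0.39, limma adjusted p = 0.0276) and GNA13 (-0.37, limma adjusted p = 0.0204) were called lower, as neither was in sg3. For sg9 47.8% of all tested genes were called. Among 14 tested genes of desensitisation and trafficking, GRK5, a receptor kinase, rose by 0.73 with the HIF2a guides (SE 0.12, limma adjusted p = 7.37e-05), and the arrestin ARRB1 by 0.38. With the USP37 guides the ATPase VPS4A was called higher (0.65) and its paralog VPS4B (-0.36), the deubiquitinase USP8 (-0.34) and the kinase GRK3 (-0.38) lower, USP8 and GRK3 in sg9 but not in sg3 alone.

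Of 5 proteins that bind CXCR4 at the membrane or the cytoskeleton, LASP1, which binds the receptor's tail, rose with both targets. Its difference was 0.63 with the HIF2a guides (SE 0.08, limma adjusted p = 3.4e-06) and 0.72 with the USP37 guides (SE 0.09, limma adjusted p = 4.92e-06). Filamin A (FLNA) fell by 0.40 with the HIF2a guides and rose by 0.42 with the USP37 guides (called in sg3 but not in sg9 alone), where drebrin (DBN1) rose by 0.50. For FLNA and DBN1 the controls differed by more than the guides did, by -1.30 and -0.78 for the USP37 control minus the HIF2a control.

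Of 19 tested signalling effectors, 5 were called higher and 5 lower with the HIF2a guides, against 16.1% and 14.5% of all tested genes. DOCK2, a Rac activator known from lymphocyte migration, was 6.31, 6.38 and 6.66 in HIF2a sg4 and 6.36, 6.43 and 6.47 in HIF2a sg6, against 7.71, 7.81 and 7.68 in the HIF2a control (difference -1.29, SE 0.13, limma adjusted p = 1.23e-07). With the USP37 guides it was 8.01, 8.18 and 7.85 in sg3 and 7.39, 7.46 and 7.01 in sg9, against 6.67 and 7.27 in their control. That rise of 0.68 (SE 0.15, limma adjusted p = 0.00129) was 1.04 for sg3 (limma adjusted p = 9.4e-05) and 0.32 for sg9 (limma adjusted p = 0.134), with sg9 below sg3 (-0.72, limma adjusted p = 0.0016). The rise of both guides was lost without USP37 control replicate 2 (0.38, limma adjusted p = 0.119), and the higher of the control libraries was the one with T cell transcripts. The adaptor BCAR1 rose with both targets (0.50 with the HIF2a guides and 0.44 with the USP37 guides). The kinase SRC rose with the HIF2a guides (0.64) and fell with the USP37 guides (-0.30), called in sg3 but not in sg9 alone. STAT3, a transcription factor activated below many cytokine receptors, fell by 0.73 with the USP37 guides (SE 0.12, limma adjusted p = 4.3e-05). It rose by 0.34 with the HIF2a guides (SE 0.10, limma adjusted p = 0.0125), a call lost without HIF2a control replicate 1 (limma adjusted p = 0.0672) or 3 (limma adjusted p = 0.0828). It was 0.11 for sg4 (limma adjusted p = 0.522) and 0.57 for sg6 (limma adjusted p = 0.000736), and sg6 lay above sg4 (0.46, limma adjusted p = 0.0154).

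Among the regulators, EPAS1 fell with both targets, by 1.97 with its own guides (SE 0.10, limma adjusted p = 2.21e-12) and by 0.72 with the USP37 guides (SE 0.12, limma adjusted p = 6.6e-05). HIF1A, the other alpha subunit, rose by 0.90 with the HIF2a guides (SE 0.09, limma adjusted p = 1.2e-07) and differed by -0.13 with the USP37 guides (limma adjusted p = 0.356). The HIF2a control was the lowest group for HIF1A, 0.81 below the USP37 control (limma adjusted p = 2.5e-05). ARNT, the shared partner of both alpha subunits, fell by 0.98 with the USP37 guides (SE 0.10, limma adjusted p = 3.58e-07) and differed by -0.08 with the HIF2a guides (limma adjusted p = 0.547). VHL differed by 0.09 with the HIF2a guides (limma adjusted p = 0.479) and fell by 0.26 with the USP37 guides (SE 0.10, limma adjusted p = 0.0383), a call not made for sg9 alone and lost without USP37 control replicate 3 (-0.14, limma adjusted p = 0.422). EPAS1 was thus lower in both experiments, as was CXCR4, while CXCL12 was high and ACKR3 low with the HIF2a guides.

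**Figure D3:**
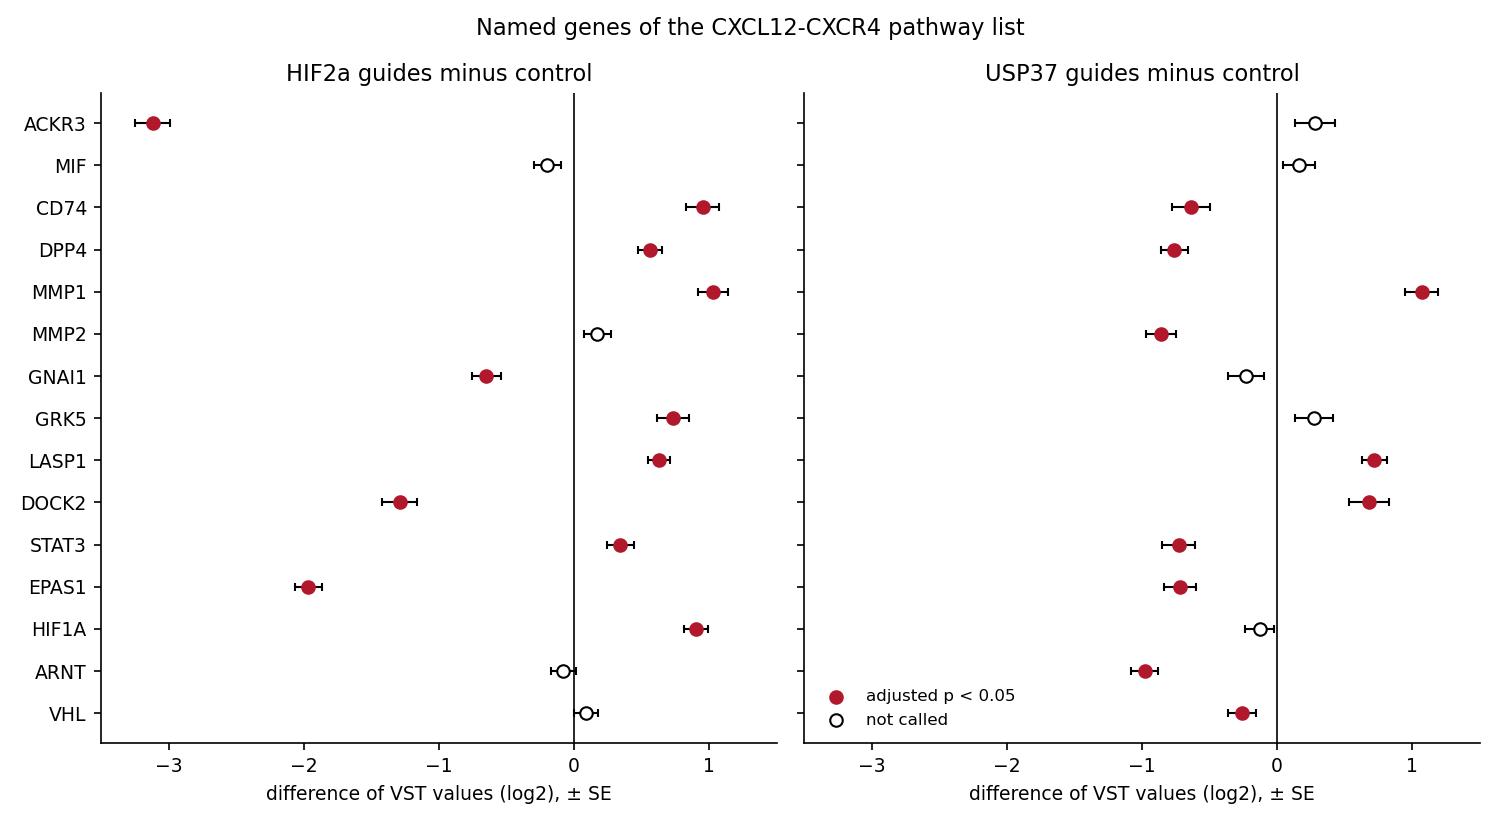
Differences (log2, ± SE) of both guides from their control for the named genes of the CXCL12-CXCR4 list, HIF2a on the left and USP37 on the right; filled points have an adjusted p under 0.05. ACKR3 has the lowest value with the HIF2a guides (-3.12) and is near 0 with the USP37 guides (0.28), and MMP1 and LASP1 lie above 0 in both.

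Other chemokines are given beside CXCL12 as members of its family. Of 36 other chemokine ligands 9 passed the filter, 18 did not and 9 had a single value in every library. With the HIF2a guides 6 of the 9 were called higher and 1 lower, against 16.1% and 14.5% of all tested genes. The USP37 guides had 4 higher and 3 lower, against 22.4% and 21.9%. The neutrophil chemoattractant CXCL5 was 14.94, 15.06 and 15.06 in HIF2a sg4 and 14.18, 14.31 and 14.16 in HIF2a sg6, against 13.69, 13.58 and 13.75 in the HIF2a control, a rise of 0.94 (SE 0.07, limma adjusted p = 1.2e-09). It fell by 0.55 with the USP37 guides (SE 0.08, limma adjusted p = 2.43e-05). CCL28, a chemokine of mucosal epithelia, rose by 1.02 with the HIF2a guides (SE 0.09, limma adjusted p = 5.04e-09) and fell by 0.46 with the USP37 guides (SE 0.10, limma adjusted p = 0.000866). For CCL28 the USP37 control already stood 0.91 above the HIF2a control (limma adjusted p = 2.67e-06), nearly as far as the HIF2a guides. CX3CL1, a membrane-bound chemokine, was 9.12 to 9.53 with the HIF2a guides, against 8.38 to 8.74 in their control, a rise of 0.84 (SE 0.11, limma adjusted p = 2.67e-06). It was 0.10 from its control with the USP37 guides (limma adjusted p = 0.523).

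The related ligands CXCL1, CXCL2 and CXCL3 are near-identical in parts, so their reads may be shared, and all 3 were lower in HIF2a sg6 than in HIF2a sg4 (differences of -1.25, -0.99 and -0.75, limma adjusted p from 6.95e-06 to 0.000584). CXCL1 was 13.68, 14.16 and 13.89 in HIF2a sg4 and 12.61, 12.93 and 12.43 in HIF2a sg6, against 12.45, 12.34 and 12.91 in the HIF2a control. The rise of 0.72 for both guides (SE 0.12, limma adjusted p = 9.12e-05) was 1.35 for sg4 (limma adjusted p = 1.86e-07) and 0.09 for sg6 (limma adjusted p = 0.668). With the USP37 guides CXCL1 rose by 1.17 (SE 0.14, limma adjusted p = 1.61e-06), at 13.18 to 13.51 against 12.08 and 12.28. CXCL2 rose by 0.41 with the HIF2a guides (limma adjusted p = 0.0232) and by 0.43 with the USP37 guides (limma adjusted p = 0.0278). In each target 1 guide was called alone: CXCL2 was 0.91 in HIF2a sg4 (limma adjusted p = 0.000139) and -0.08 in HIF2a sg6 (limma adjusted p = 0.753), and 0.21 in USP37 sg3 (limma adjusted p = 0.368) and 0.66 in USP37 sg9 (limma adjusted p = 0.00386). Both calls of CXCL2 were lost without single libraries, among them HIF2a control replicate 2 (limma adjusted p = 0.101) and USP37 control replicate 2 (limma adjusted p = 0.246). CXCL3 rose by 0.47 with the USP37 guides (SE 0.13, limma adjusted p = 0.00474). Its rise of 0.30 with the HIF2a guides (limma adjusted p = 0.0428) was not called with the replicate number in the fit (limma adjusted p = 0.0757). That rise was 0.19 without the 3 libraries that stand apart, which leaves a single library of HIF2a sg6. CXCL3 too was called in HIF2a sg4 (0.67) but not in sg6 (-0.08), and in USP37 sg9 (0.69) but not in sg3 (0.25).

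CXCL8, the neutrophil chemokine also called interleukin-8, rose by 0.53 with the USP37 guides (SE 0.09, limma adjusted p = 8.27e-05), with 0.21 for sg3 (limma adjusted p = 0.111), 0.86 for sg9 (limma adjusted p = 1.37e-06) and 0.65 between them (limma adjusted p = 5.19e-05). CXCL8 differed by -0.09 with the mean of both HIF2a guides (limma adjusted p = 0.433), which moved in opposite directions. It was called higher in HIF2a sg4 (0.36, limma adjusted p = 0.00557) and lower in HIF2a sg6 (-0.53, limma adjusted p = 0.000119). The difference of sg6 minus sg4 was -0.89 (limma adjusted p = 2.63e-06). CCL2, a monocyte chemoattractant, fell by 0.71 with the HIF2a guides (SE 0.18, limma adjusted p = 0.00388), with -0.08 for sg4 (limma adjusted p = 0.826), and was lower in sg6 than in sg4 (difference -1.26, limma adjusted p = 0.000442). The USP37 control lay below the HIF2a control for CCL2 (difference -2.03, limma adjusted p = 9.52e-07). CCL20, which attracts cells with CCR6, fell by 1.06 with the USP37 guides (SE 0.19, limma adjusted p = 0.000123). The mean of both HIF2a guides was 0.00 from its control (limma adjusted p = 0.997), between guides on opposite sides of it. CCL20 was 0.32 for HIF2a sg4 (limma adjusted p = 0.224) and -0.32 for sg6 (limma adjusted p = 0.212), and sg6 lay below sg4 (-0.64, limma adjusted p = 0.0325). Of the 9 ligands 7 were called lower in HIF2a sg6 than in HIF2a sg4 and 0 higher, against 4.36% and 4.86% of all tested genes, and CXCL12 was lower in sg6 too. The difference of both HIF2a guides from their control was 4.23 for CXCL12, against 1.02 for CCL28, the highest of the 9. CXCL12 was chosen with its rise known and the ligands below the filter are left out, so this order is not read as a result.

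Of 22 other chemokine receptors 3 passed the filter (ACKR3, CCR10 and CCRL2), 12 did not and 7 had a single value in every library. ACKR3 was called lower with the HIF2a guides, and limma called 0 of the 3 with the USP37 guides (44.3% of all tested genes), where CCR10 alone had an unadjusted p under 0.05 (difference 0.36, limma adjusted p = 0.0772). CCR10 was called higher in USP37 sg9 (0.59, limma adjusted p = 0.0112) but not in sg3 alone (0.13, limma adjusted p = 0.606). CCR6 did not pass the filter and was singled out after its values were seen. It was 8.10 and 7.93 in the USP37 control, against 5.38 to 6.40 in the other 15 libraries, and was thus high also in USP37 control replicate 2, in which the T cell genes were at the floor. CXCR4 and CCR6 thus were both highest in the USP37 control.

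**Figure D4:**
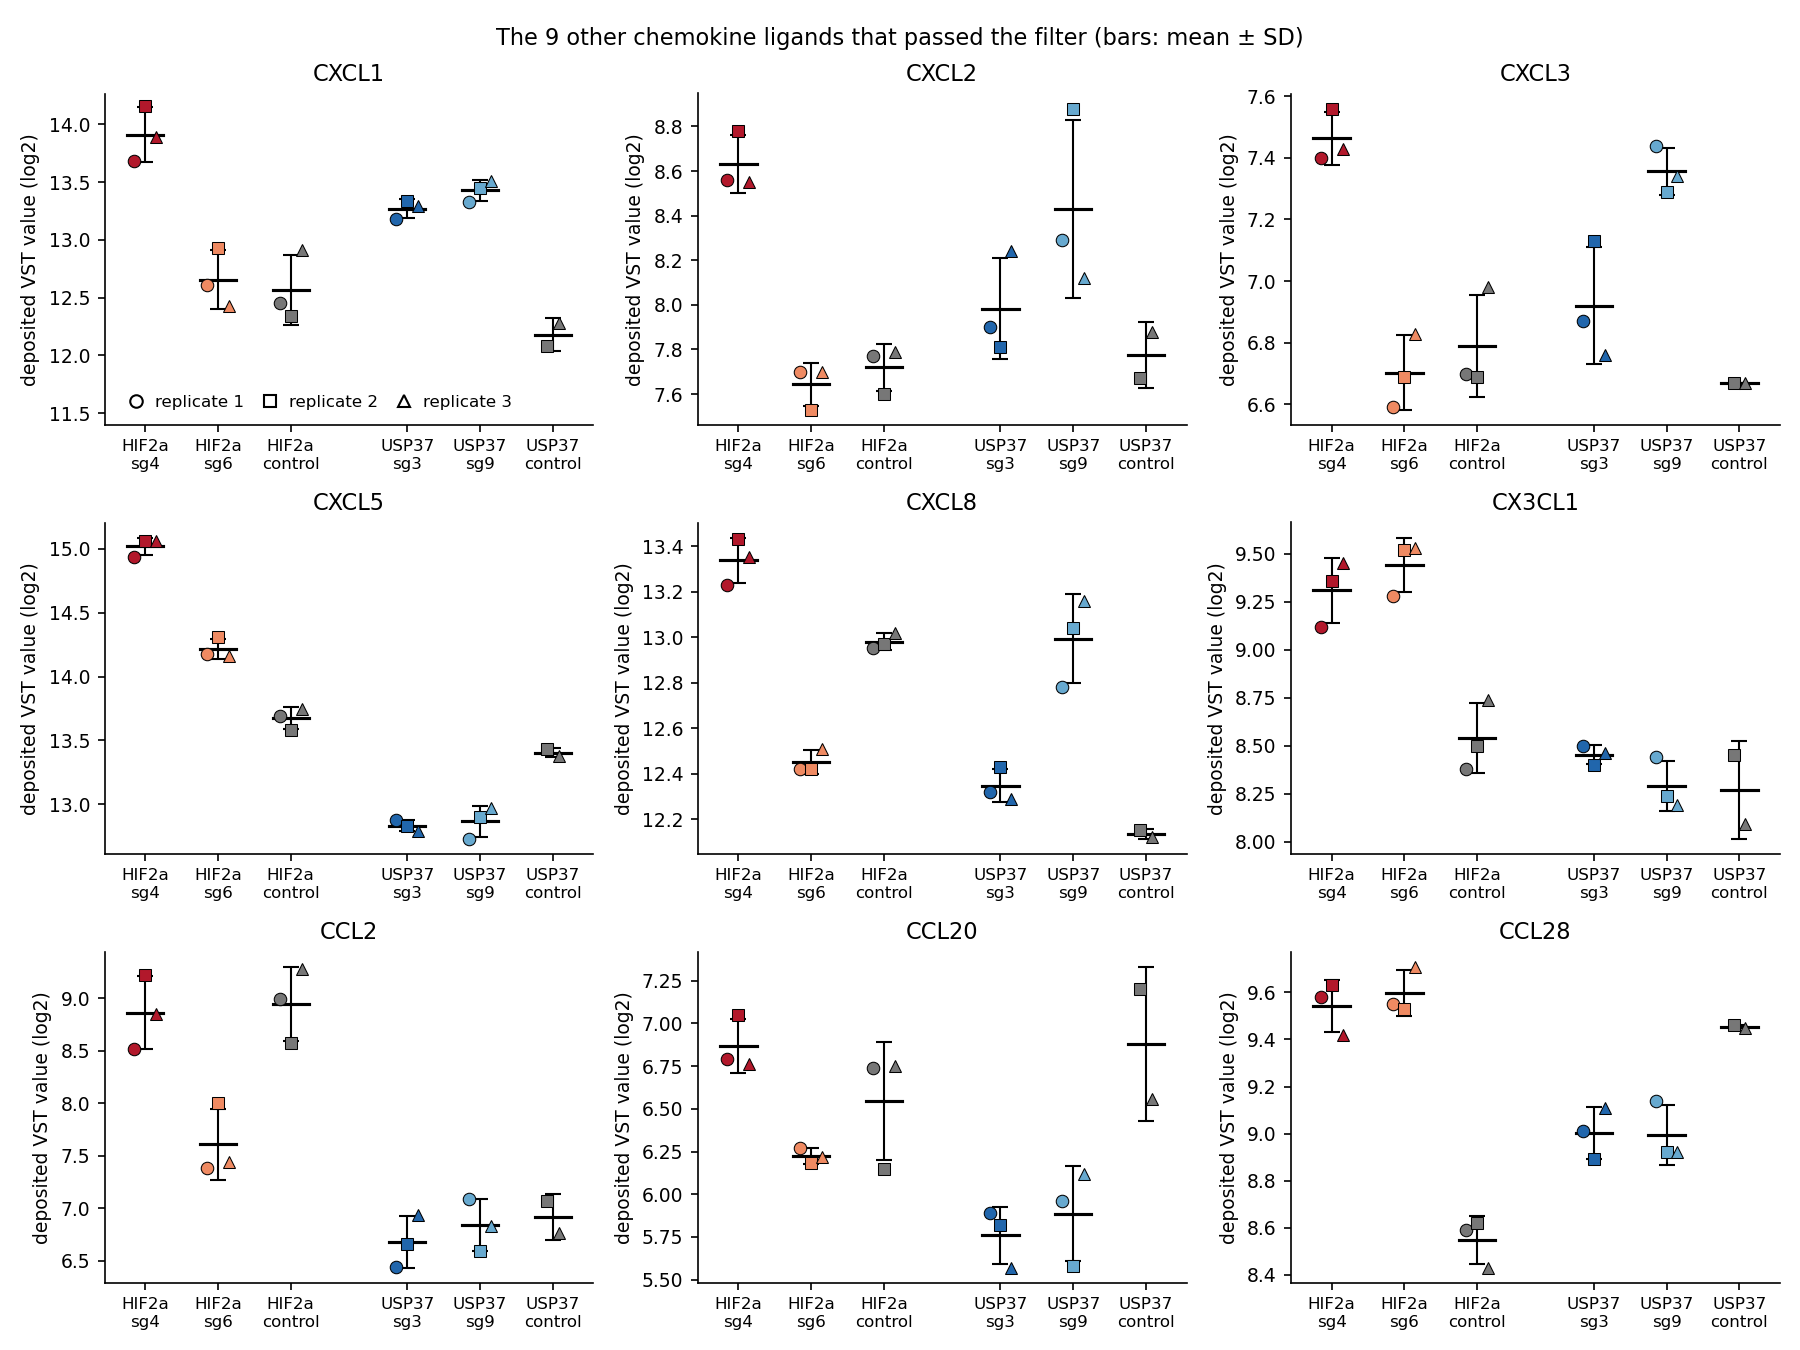
Deposited VST values (log2, vertical axes with different ranges) of the 9 other chemokine ligands that passed the filter, in each library by group, with bars for mean ± SD. CXCL5, CX3CL1 and CCL28 are higher with both HIF2a guides than in their control, and CXCL1 is higher with sg4 (13.68 to 14.16) but not with sg6 (12.43 to 12.93).

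The genes most like CXCL12 over the 17 libraries were ranked by Pearson's r, as a description. The libraries form 6 groups of 2 experiments, so r mostly reflects group means, and no p is given. Among the highest r of 12483 other tested genes were those of the Wnt carrier WLS (0.992), TRHDE-AS1 (0.990), the amino acid transporter SLC43A2 (0.985) and the peptidase TRHDE (0.978). Their differences from the control ran from 0.75 (WLS) to 1.98 (SLC43A2) with the HIF2a guides and from -0.62 (SLC43A2) to -0.14 (WLS) with the USP37 guides. TRHDE and TRHDE-AS1 lie on opposite strands, and the sources used here do not state that strand was used in counting, so their reads cannot be told apart where they overlap. The lowest r belonged to the calcium sensor HPCAL1 (-0.992), LUM (-0.986) and MYEOV (-0.984), whose differences ran from -3.38 (MYEOV) to -0.83 (HPCAL1) with the HIF2a guides and from -0.16 (LUM) to -0.04 (HPCAL1) with the USP37 guides. The r of CXCL12 was -0.903 with EPAS1, -0.817 with ACKR3 and -0.387 with CXCR4.

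For CXCR4 the highest r over 12484 tested genes belonged to C1QL1 (0.952), a secreted C1q-like protein, LINC01559 (0.932), C10orf10 (0.922), TNFSF10 (0.917), the death ligand TRAIL, and the DNA helicase RECQL (0.912). All 5 had lower means with the guides of both targets. Their differences ran from -2.36 (C10orf10) to -0.28 (RECQL) with the HIF2a guides and from -1.76 (C10orf10) to -0.47 (RECQL) with the USP37 guides. The lowest r belonged to the kinesin KIF26B (-0.945), the mitochondrial transaminase GOT2 (-0.940) and the gap junction protein connexin 43, GJA1 (-0.923). These 3 had higher means with both targets, by 0.49 (GOT2) to 1.08 (KIF26B) with the HIF2a guides and by 0.43 (GOT2) to 1.45 (KIF26B) with the USP37 guides. CXCR4 had an r of 0.605 with EPAS1 and of 0.493 with ACKR3.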

How the data were processed

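Polyadenylated RNA of 786-O cells was sequenced as paired reads, per the labels' protocols. The authors deposited 1 table of variance-stabilised log2 values for 27315 genes and 17 libraries, which holds no counts, so the depth is unknown. Cutadapt, STAR 2.5.2b, Salmon, DESeq2 and hg19 appear in the submitters' processing notes, without roles. For the annotation, strand setting and batch variable, the sources used here give nothing. In the deposited values the means over libraries of each replicate number were equal for every gene to within 6.4e-14, so a term for that number had been removed, and p-values that ignore it tend to be too small. The USP37 control has no library numbered 1, so the term removed can hold part of the differences between groups. Differences of group means, above all those from the USP37 control, can thus be shifted in a fit without the replicate number.

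The filter kept the 12484 genes with a mean of 1 log2 unit or more above the 1st percentile of all gene means. The 6 group means were fitted together in limma 3.58.1 (R 4.3.3), with a trend of variance on mean and 11 residual degrees of freedom, and p-values were Benjamini-Hochberg adjusted over all tested genes of a contrast. The procedure was tested on simulated data. The genes, the lists, the markers and the alternatives were chosen with earlier results of these data known. Named genes were 8 preset genes of the axis, in each experiment the called pathway and chemokine genes with the 8 largest differences, and the 5 highest and 3 lowest correlations. One gene that this rule names is not reported here. Other genes named by their role were added after their values were seen. Alternatives were a fit with the replicate number, libraries centred on their medians, array weights, no trend, no filter, a filter at 2 log2 units, each experiment alone, leaving out single libraries or the 3 that stand apart, and, added after the data were seen, CXCR4 as height above its floor.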

Additional observations from a re-analysis of the deposited data

Results flagged for a closer look

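For 15 of the named genes the effect of the USP37 guides differed from that of the HIF2a guides in a limma test of the difference itself, a contrast added after the values were seen. In that contrast 38.6% of all 12484 tested genes were called. Many of the named genes were taken for their large called differences in either experiment, which favours a gap between the effects. The count of 15 is thus not to be read against that share, and the p-values are descriptive. Each value below is the USP37 effect minus the HIF2a effect on the log2 scale.

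ACKR3, the second receptor of CXCL12, had the widest gap, with 3.40 (limma adjusted p = 4.08e-11), and the effector DOCK2 had 1.97 (limma adjusted p = 2.1e-07). EPAS1 differed by 1.26 (limma adjusted p = 2.66e-06), with the lower value under its own guides, and CXCL8 by 0.62 (limma adjusted p = 0.000358). In the other direction lay the MIF receptor CD74 with -1.58 (limma adjusted p = 8.72e-07), CXCL5 with -1.50 (limma adjusted p = 1.5e-09), CCL28 with -1.48 (limma adjusted p = 2.16e-08) and the CXCL12-cleaving peptidase DPP4 with -1.32 (limma adjusted p = 2e-07). STAT3 differed by -1.07 (limma adjusted p = 1.46e-05), CCL20 by -1.06 (limma adjusted p = 0.00194), MMP2 by -1.03 (limma adjusted p = 1.56e-05), HIF1A by -1.03 (limma adjusted p = 9.55e-06) and ARNT by -0.90 (limma adjusted p = 3.4e-05). CX3CL1 differed by -0.74 (limma adjusted p = 0.00134) and VHL by -0.35 (limma adjusted p = 0.0406). For CXCL8 and CCL20 the HIF2a effect is a mean of guides on opposite sides of their control, so the gap differs between those guides. The effects are each measured from their own control, and for ACKR3, CCL28, CD74, CXCL5, CXCL8, DOCK2, DPP4, HIF1A, ARNT and VHL those controls were also called different.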

How the results depend on the processing

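Whether the replicate numbers pair the libraries cannot be read from these values, because a term for the number had been removed, which presses such correlations down. Deviations of same-numbered libraries from their group means had a correlation of -0.55 to 0.22 in the HIF2a experiment, where 3 of 9 libraries correlated best with their own number, and of -0.19 to -0.07 in the USP37 experiment, where 0 of 8 did. With the replicate block CXCL12 kept its difference of 4.23 with the HIF2a guides, CXCR4 was -1.13 with the USP37 guides, and 3321 of all genes were called with the HIF2a guides and 5069 with the USP37 guides. The calls of CXCL3 with the HIF2a guides (limma adjusted p = 0.0757) and VHL with the USP37 guides (limma adjusted p = 0.0868) were lost, and no count over the lists or over all genes moved by more than 1.5 times. Leaving out the 3 libraries that stand apart leaves a single library of HIF2a sg6, so only sizes of differences are given for that setting. CXCL12 was then 3.47 for HIF2a sg6 against its control. CXCR4 was -0.64 for both HIF2a guides, -0.71 for sg6 against its control and -0.15 for sg6 against sg4. With sg6 at its floor, these CXCR4 values are distances to the floor and no folds. The cause was not tested. Over all genes, the 3159 calls for HIF2a sg4 became 5150 with array weights, the 3624 for HIF2a sg6 became 2021 without the 3 libraries, and the 1151 between the HIF2a guides became 573 with array weights and 413 without the 3 libraries, a setting that leaves fewer samples. With array weights CXCL12 between the HIF2a guides was -0.70 and no longer called. CCL20 with the HIF2a guides turned to -0.12 with array weights and -0.17 without the 3 libraries. Leaving out single libraries gave -0.90 to -0.63 for CXCL12 between the HIF2a guides and -0.22 to 0.17 between the USP37 guides, where the sign turned without sg3 replicate 2 (0.02), sg3 replicate 3 (0.01) or sg9 replicate 1 (0.17). It gave -1.43 to -1.07 for CXCR4 in USP37 sg3, again a distance to the floor, 0.21 to 0.57 for CXCR4 between the controls, -0.20 to 0.10 for CCL20 with the HIF2a guides and -0.07 to 0.28 for CX3CL1 with the USP37 guides. Counts over all genes ran from 500 (without sg4 replicate 2) to 1593 between the HIF2a guides, from 3683 (without USP37 control replicate 2) to 5854 with the USP37 guides and from 3347 (without USP37 control replicate 3) to 5404 between the controls. Values of single genes crossed the threshold 32 times over the settings, 26 of them losing a call. The 2 libraries of the USP37 control and the flattening of the scale near its floor limit what can be read for CXCR4, and for CXCL12 in the USP37 experiment.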
